A study of Mus musculus with 10 samples.

Results

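The cytosolic ribosomal protein genes were examined as large and small subunit genes in whole hippocampus of female Balb c/J mice, an inbred strain, that were born on the same day and sorted by a composite score of open field behaviour collected over several days and lighting conditions. By title, 5 mice were High Exploration and 5 were Low Exploration, each with 1 array of 1 colour, and the labels gave no age and no treatment. The paper compared mice from the top and the bottom of this score and not those between. The groups were thus extremes of behaviour in animals of 1 genotype, and replicate numbers here only name mice in accession order. Members were the probe sets annotated with exactly 1 gene symbol, where that symbol named an Rpl or Rps protein, Rplp0 to Rplp2 or Rpsa, with the S6 kinases and pseudogenes left out. This gave 106 probe sets for 50 genes among the 34945 probe sets with 1 symbol, or 50 of 18193 genes: 48 probe sets for 26 large subunit genes and 58 probe sets for 24 small subunit genes. Rps19bp1 matched the symbol rule although it encodes a protein that binds Rps19 and is not a subunit, so the small subunit group was also described without it.

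As background, a ribosome joins a small subunit, which holds the mRNA and decodes it, to a large subunit, which forms the peptide bond and ends in an exit tunnel for the new chain. Each subunit is built from ribosomal RNA and a fixed set of proteins that are needed in matched amounts. Most ribosomal protein mRNAs begin with a terminal oligopyrimidine (TOP) tract, a C followed by a run of C and T in the DNA, through which mTOR signalling and Larp1 control their translation together. In neurons these mRNAs are abundant in the cell body and are also found in dendrites and axons, and their many processed pseudogenes make array probes hard to place on 1 gene.

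RefSeq promoter windows (assembly GRCm38.p6, 250 bases before and 50 after an annotated start) were matched for 44 of the 50 genes, which held 52 windows. A run of at least 5 C or T bases that began with C at the annotated first base was found in 8 of the 52 windows (15.4%), against 823 of all 32851 windows (2.51%). The 5 starts printed here are shown because they carry such a run in genes whose signals ran in different directions in the comparison. Each gives 20 bases before and 20 from the annotated start on the gene's own strand, 5′ to 3′, with the run in capitals.
Rpl35, chr2:39005112-39005151, minus strand: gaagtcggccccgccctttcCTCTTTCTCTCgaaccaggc
Rps18, chr17:33955646-33955685, minus strand: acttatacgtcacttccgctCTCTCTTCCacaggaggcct
Rps6, chr4:86857348-86857387, minus strand: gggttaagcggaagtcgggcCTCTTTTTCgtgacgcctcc
Rpl38, chr11:114668560-114668599, plus strand: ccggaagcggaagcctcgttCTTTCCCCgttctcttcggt
Rps27, chr3:90213629-90213668, minus strand: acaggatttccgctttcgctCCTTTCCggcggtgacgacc
The difference in log2 signal between High and Low Exploration was 1.11 for Rps18, 0.62 for Rpl35, 0.90 for Rpl38, −0.34 for Rps6 and −1.14 for Rps27. Of these only Rps6 changed sign with the scaling. Since the 5 were picked for differing directions, their mix of signs is not a result. The other genes with such a run, Rpl14, Rplp2 and Rps10, stood at 0.33, 0.36 and 0.37 and were higher under every scaling. Annotated starts can lie some bases from the true start, and a window without such a run says only that these letters were not at that base.

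The letters CCGGAAG, read on either strand (reverse complement CTTCCGG), were present in 21 of the 52 windows (40.4%) and in 8.86% of all windows. CTTTCC or its reverse complement GGAAAG was present in 24 windows (46.2%) against 26.6%, and ATGGCGG or CCGCCAT in 7 (13.5%) against 4.06%. GGGCGG or CCGCCC was found in 28 member windows (53.85%) against 35.7%, and TATAAA or TTTATA in 6 (11.5%) against 13.6%. The last 100 bases before the start and the first 20 after it are printed for Rps27l, Rpl22 and Rps3a1, which had positive differences above 1.5, and for Rpsa, which had a negative one. Where a gene had 2 windows, the one holding a motif is shown, with the first and second of these motifs in capitals, on either strand.
Rps27l, chr9:66945986-66946105, plus strand: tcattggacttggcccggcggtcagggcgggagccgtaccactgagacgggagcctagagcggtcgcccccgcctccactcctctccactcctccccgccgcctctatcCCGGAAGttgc
Rpl22, chr4:152325626-152325745, plus strand: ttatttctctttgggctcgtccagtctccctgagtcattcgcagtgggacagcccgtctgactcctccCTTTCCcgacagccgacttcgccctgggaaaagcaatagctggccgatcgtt
Rps3a1, chr3:86142649-86142768, minus strand: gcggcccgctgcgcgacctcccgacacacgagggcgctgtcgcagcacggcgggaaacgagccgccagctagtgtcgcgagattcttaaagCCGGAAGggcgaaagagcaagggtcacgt
Rpsa, chr9:120127666-120127785, plus strand: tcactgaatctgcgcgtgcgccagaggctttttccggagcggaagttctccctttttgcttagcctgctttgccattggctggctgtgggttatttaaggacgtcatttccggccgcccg
The Rpsa stretch holds neither motif in these letters. Since the genes were picked by direction and the windows for holding a motif, this contrast is not a result. Rps3, at 1.76, was also above 1.5 and is not printed. No motif was tested as a binding site, and a window without these letters says nothing about a factor.

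Of the 106 probe sets, 87 passed the filter on low signals (a mean log2 signal above the median over all probe sets that were not controls, 7.43), which left 43 probe sets for 25 large subunit genes and 44 for 22 small subunit genes. The 19 others had means of 3.58 to 7.29, and Rpl3l, Rps4l and Rps16 had no probe set left. Each gene was represented by its tested probe set with the highest mean signal. Differences are High minus Low Exploration in log2 signal, on the scale of the deposited MAS5 values. In bulk tissue fewer cells of a type and less RNA per cell cannot be told apart.

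No ribosomal protein probe set passed an adjusted p of 0.05 in limma, where 3 of all 22518 tested probe sets (0.0133%) did, and the lowest adjusted p among the members was 0.0777, for Rpl22. At an unadjusted p under 0.05, limma gave 22 of the 87 members as higher in High Exploration (25.3%), beside 9.67% of all tested probe sets, and 5 as lower (5.75%), beside 20.5%. The 22 comprised 8 probe sets of 6 large subunit genes and 14 of 8 small subunit genes, and the 5 comprised 2 and 3. The groups did not overlap, with High Exploration above, for 1 member, probe set 1433928_a_at of Rpl13a, beside 2.14% of all tested, and no member lay wholly lower, beside 6.69%. The mean was higher in High Exploration for 66 of 87 members (75.9%), beside 38.1% of all tested probe sets. Most members, 64 of the 87, lay in the highest 10% of mean signal, where 65.6% of all probe sets had a higher mean. The counts by unadjusted p are set here only against all tested probe sets, which lie at lower signal.

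These unadjusted counts moved with single arrays. Without High Exploration replicate 3 the count of higher members was 6 (6.9%), which is below the 9.31% of all tested probe sets in the same fit. The higher share among members than over all tested probe sets was thus not present without that array. It was 7 (8.05%, beside 6.5% of all tested) without Low 5, 10 (11.5%, beside 6.44%) without High 2 and 10 (11.5%, beside 6.69%) without Low 3. It was 11 (12.6%) without Low 2 or Low 4, beside 8.72% and 9.09%, and 39 (44.8%, beside 10.9%) without Low Exploration replicate 1. The count of lower members was 2 without Low 4 or Low 5, 3 without High 2 or High 5 and 8 without High 3, each below the 16% to 22.9% of all tested probe sets in those fits. Leaving out High 3 and Low 1 together, chosen after seeing the data, gave 33 higher (37.9%, beside 10.9%) and 10 lower (11.5%, beside 18.8%).

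By gene, the representative probe set had a higher mean in High Exploration for 18 of 25 large subunit genes, with a median difference of 0.33, and for 15 of 22 small subunit genes, with a median of 0.60. Over all tested probe sets the median was −0.31, and it was −0.0090 after quantile normalisation, 0.23 after median centring and 0.30 with the hybridisation controls set equal. Ribosomal protein genes are abundantly expressed, so the 4504 probe sets in the highest 10% of mean signal on the array are the nearer background: their median difference was 0.43 and 65.6% of them were higher in High Exploration. Under the 4 scalings the ribosomal protein median was 0.36, 0.27, 0.89 and 0.96, and 33, 28, 38 and 41 of 47 genes were higher. The direction was higher under all 4 scalings for 27 genes (14 large, 13 small), lower under all for 6, and changed with the scaling for 14.

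**Figure D1:**
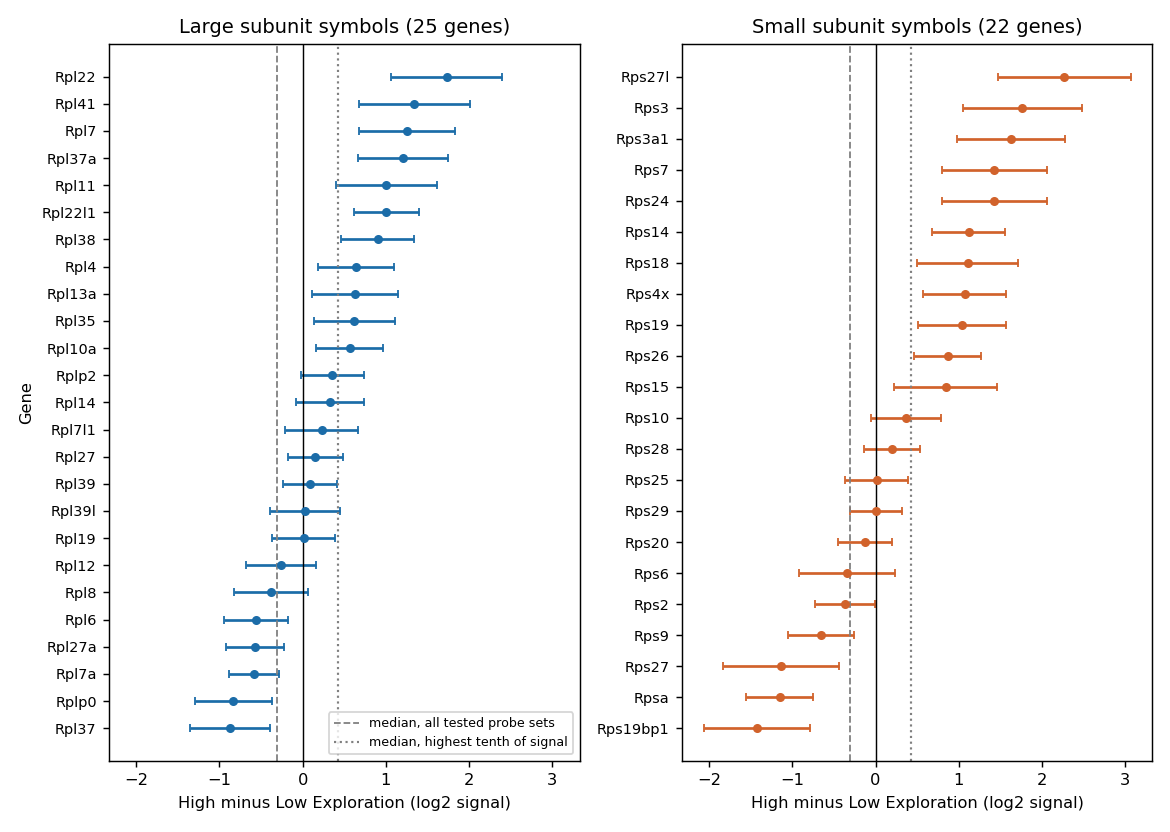
High minus Low Exploration difference in log2 signal with its limma SE for the representative probe set of 25 large and 22 small subunit genes, ordered by size (n = 5 arrays per group). Lines mark the median of all tested probe sets (−0.31) and of the most abundant 10% (0.43); 33 of the 47 genes lie above 0, and error bars of many genes cross it.

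The difference followed the signal level. Among the 64 member probe sets in that highest 10%, 56 had a higher mean in High Exploration (87.5%, beside 65.6% of all in the class). Their median was 0.88, beside 0.43. By subunit, 26 of 30 large subunit probe sets (median 0.66) and 30 of 34 small subunit probe sets (median 1.05) were higher. The 64 members had a median level of 13.1, against 11.3 for the whole class, so the class is not matched to them in level. In the next 10% of the array 7 of 10 members were higher (70%, beside 43.6%), with a median of 0.30, where all probe sets of that class had −0.17. In the 3 such classes below, 3 of 13 members were higher (23.1%, beside 27.2%) and their median was −0.52, where all probe sets there had −0.53.

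It also followed the kind of probe set, which the ending of its ID gives. Those ending in _at alone target 1 transcript, _a_at marks several transcripts of 1 gene, and _x_at marks probes that can also bind other sequences. Of 37 tested members ending in _x_at, 32 were higher (median 0.82, median level 13.3), where all tested probe sets of that ending had 50.9% higher, a median of 0.01 and a median level of 10.1. Of 27 ending in _a_at, 24 were higher (median 0.86, median level 12.3), where all of that ending had 47.8% higher, a median of −0.06 and a median level of 9.20. The 1 ending in _s_at belonged to Rpl22. Of 22 ending in _at alone, 9 were higher (median −0.31, median level 9.29), beside a median of −0.40 over all tested probe sets of that ending. Ending and level moved together among the members, so their parts cannot be told apart. Restricting each gene to probe sets ending in _at alone gave a median of −1.14 for the 9 small subunit genes that had one and 0.022 for 12 large subunit genes. The 9 include Rps19bp1 at −1.42, which is not a subunit, and the others ran from −2.16 for Rps24 to 1.33 for Rps15.

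**Figure D2:**
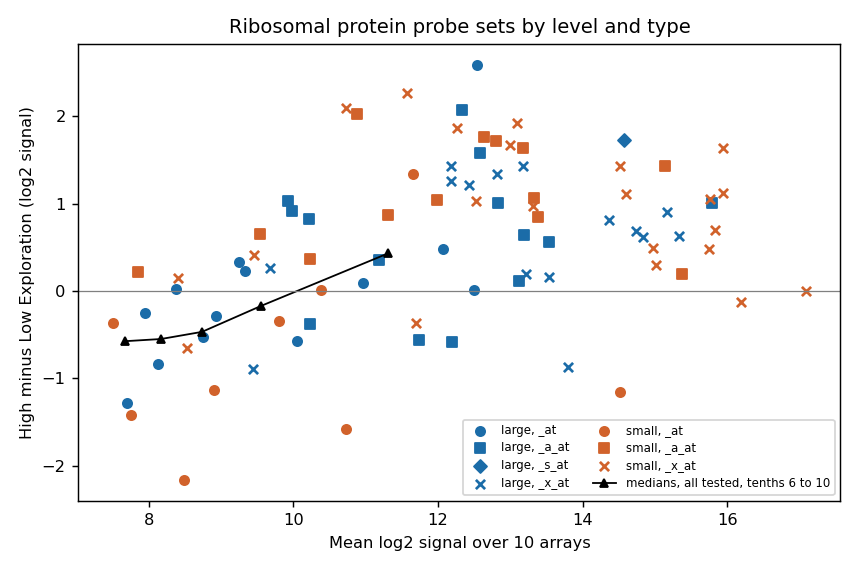
Mean log2 signal over 10 arrays (x) against High minus Low Exploration difference in log2 signal (y) for the 87 tested ribosomal protein probe sets, marked by ID ending, with the median difference of all tested probe sets in each 10% class of signal. Probe sets ending in _x_at and _a_at sit mostly at high signal and above 0, and those ending in _at alone mostly at lower signal and around or below 0.

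The groups overlapped when each array was summarised by its median over the genes. The large subunit medians were 12.10, 13.07, 14.13, 12.03 and 12.42 in High Exploration replicates 1 to 5 and 12.74, 12.14, 12.01, 11.89 and 11.83 in Low Exploration (12.75 ± 0.88 against 12.12 ± 0.36, SD, n = 5). The small subunit medians were 13.44, 13.68, 15.36, 12.38 and 12.62 in High Exploration and 13.72, 12.03, 11.86, 12.05 and 11.69 in Low Exploration (13.50 ± 1.17 against 12.27 ± 0.83). Low 1 thus read above 3 of the High Exploration arrays for the large subunit and above 4 for the small subunit. No test was run on these summaries, since the members were chosen with earlier results known.

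High Exploration replicate 3 stood highest of its group in 43 of the 47 genes, 22 of 25 large and 21 of 22 small, where the same array was highest in 23.1% of all tested probe sets and in 27.4% of the most abundant 10%. Low Exploration replicate 1 stood highest of its group in 32 of the 47, beside 27.7% and 33.3%. Without High 3 the median difference was 0.086 for the large and 0.18 for the small subunit genes. Without both arrays it was 0.055 and 0.43, with 30 of 47 genes higher.

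**Figure D3:**
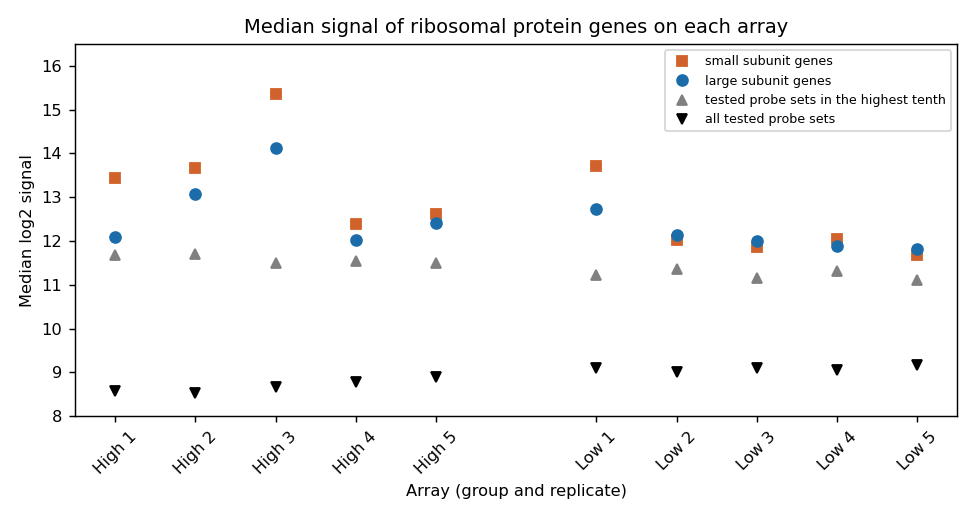
Median log2 signal per array for the large and small subunit genes, the most abundant 10% and all tested probe sets. High Exploration replicate 3 (large 14.13, small 15.36) and Low Exploration replicate 1 (large 12.74, small 13.72) are the highest of their groups for the ribosomal protein genes.

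Large and small subunit genes did not keep a fixed distance. The large minus small median was −1.34, −0.61, −1.23, −0.35 and −0.21 in High Exploration replicates 1 to 5 and −0.99, 0.11, 0.15, −0.16 and 0.14 in Low Exploration replicates 1 to 5. The widest distances belonged to High 1, High 3 and Low 1, and the groups overlapped. Signals of different probe sets are not comparable as amounts of RNA, so only the change in this distance from array to array can be read. The spread within groups was also unequal, with a median pooled SD of 0.70 for large and 0.88 for small subunit genes, beside 0.72 for all tested probe sets and 0.62 for the most abundant 10%.

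Technical controls moved with the groups. The spiked hybridisation controls averaged 13.63 ± 0.31 in High and 14.24 ± 0.29 in Low Exploration (exact 2-sided permutation p = 0.0159), and the poly-A controls, added before labelling, 12.49 ± 0.47 and 14.12 ± 0.44 (exact permutation p = 0.00794). The 3′ minus 5′ difference of Gapdh, which grows as RNA is shortened, was 4.72 ± 0.48 in High and 3.72 ± 0.23 in Low Exploration (exact permutation p = 0.0159), and that of beta-actin 5.30 ± 0.58 and 4.97 ± 0.75 (exact permutation p = 0.484). Their part in the ribosomal protein differences was not tested. Summed signals of 10 lists of cell type markers overlapped between the groups except for the astrocyte list, at 15.44 to 16.14 in High and 14.61 to 15.34 in Low Exploration. That list had 5 of 6 genes tested, of which Gja1 was the most abundant, and its median difference was 0.36, with 3 of the 5 higher. The interneuron list had the largest median difference of the marker lists, 1.04, with 4 of 5 tested genes higher and summed signals of 13.22 to 14.93 in High and 12.77 to 13.72 in Low Exploration. Of its genes, the GABA-synthesising enzyme Gad1 stood at 0.99 (SE 0.45, limma adjusted p = 0.157) and the neuropeptide Vip at 1.29 (SE 0.35, limma adjusted p = 0.0663), both with an unadjusted p under 0.05. The other GABA-synthesising enzyme listed, Gad2, stood at −0.16 (SE 0.43, limma adjusted p = 0.82), and Sst, below the filter and not tested, at −0.79. Pvalb and Npy, picked after their values were seen, were highest in High 3 and in Low 1 of their groups, as most ribosomal protein genes were. Gad1, Vip and Gad2 were instead highest in High 2. Cnp of the oligodendrocyte list and Dcn of the meningeal list were also highest in High 3 and Low 1, so this pattern was not particular to interneuron markers. No marker in any list passed an adjusted p of 0.05 in limma. Markers of hippocampal pyramidal neurons were present (Camk2a 13.28), and no signal was 0. Of the 5 pyramidal markers tested, 2 were higher and 3 lower. Neurod6 stood at 1.18 (SE 0.35, limma adjusted p = 0.0726) and Slc17a7 at −2.11 (SE 0.55, limma adjusted p = 0.0644). The part of cell composition was not tested.

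Among small subunit genes the most positive differences belonged to Rps27l, Rps3, Rps3a1, Rps7 and Rps24. Rps27l encodes a p53-inducible paralogue of Rps27. Rps27l, probe set 1435429_x_at, read 13.60, 13.61, 13.98, 11.35 and 10.96 in the 5 High Exploration arrays and 13.16, 9.59, 10.51, 9.99 and 8.91 in the 5 Low Exploration arrays. Its difference was 2.27 (SE 0.80, limma adjusted p = 0.0956), and of the Low Exploration arrays only Low 1 lay within the High Exploration range. Its other probe sets gave 2.09 and 2.02, and across scalings the representative was at 2.06 after quantile normalisation, 2.80 after median centring and 2.87 with the hybridisation controls set equal. Rps27, which encodes the zinc-binding small subunit protein itself, had a lower mean in High Exploration under all 4 scalings. Across replicates 1 to 5, probe set 1460699_at for Rps27 gave 7.34, 9.25, 7.99, 10.16 and 6.90 in High Exploration and 8.33, 10.79, 10.23, 7.97 and 10.01 in Low Exploration. The difference was −1.14 (SE 0.69, limma adjusted p = 0.274), with wide scatter in both groups.

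Rps3 lines the channel through which mRNA enters the small subunit and also acts in DNA repair. The log2 signals of Rps3 (probe set 1435151_a_at) were 13.26, 13.84, 16.00, 12.28 and 12.21 in High Exploration replicates 1 to 5 and 13.62, 11.61, 11.71, 10.93 and 10.91 in Low Exploration replicates 1 to 5. The highest value was in High 3 and the second highest in High 2, and the difference was 1.76 (SE 0.72, limma adjusted p = 0.125). The less abundant probe set of Rps3, 1447563_at, gave −1.58 (SE 1.02, limma adjusted p = 0.299). Across replicates 1 to 5, probe set 1422475_a_at for Rps3a1 gave 13.75, 14.49, 16.18, 12.48 and 13.04 in High Exploration and 13.87, 12.44, 11.99, 11.69 and 11.79 in Low Exploration. In Rps3a1, a core protein of the small subunit, High 3 and High 2 were again the highest arrays, and the difference was 1.63 (SE 0.65, limma adjusted p = 0.12).

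Rps7, probe set 1419364_a_at, read 16.36, 16.20, 16.81, 15.10 and 14.82 in the 5 High Exploration arrays and 16.86, 13.75, 14.42, 13.54 and 13.61 in the 5 Low Exploration arrays. Rps7, which can bind the p53 regulator Mdm2, read higher in Low 1 than in any High Exploration array, and its difference was 1.43 (SE 0.63, limma adjusted p = 0.151). The log2 signals of Rps24 (probe set 1436064_x_at) were 15.20, 15.41, 16.67, 14.36 and 14.54 in High Exploration replicates 1 to 5 and 16.24, 13.41, 13.25, 13.01 and 13.15 in Low Exploration replicates 1 to 5. Rps24, a subunit gene mutated in Diamond-Blackfan anaemia, differed by 1.43 (SE 0.63, limma adjusted p = 0.152), and 4 of the 5 Low Exploration arrays were below every High Exploration array. The 5 tested probe sets of Rps24 had the widest range of any gene, 3.83. Probe set 1436500_at, with a mean of only 8.49, stood at −2.16 (SE 0.70, limma adjusted p = 0.0835), while the other 4 were at 0.98 to 1.67.

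Among large subunit genes, Rpl22, Rpl41, Rpl7, Rpl37a and Rpl11 had the most positive differences, and each of the 5, like the 5 small subunit genes above, was higher under all 4 scalings. Rpl22 is an RNA-binding protein of the large subunit whose loss is tolerated in many tissues, and Rpl22l1 is its paralogue. Across replicates 1 to 5, probe set 1453118_s_at for Rpl22 gave 15.98, 16.19, 16.66, 14.32 and 14.05 in High Exploration and 15.95, 13.30, 12.93, 13.60 and 12.76 in Low Exploration. The difference was 1.73 (SE 0.67, limma adjusted p = 0.114), and 1.45 after quantile normalisation, 2.27 after median centring and 2.34 with the hybridisation controls set equal. Low 1 was again above 2 of the High Exploration arrays. Its second tested probe set, 1416603_at, had the lowest adjusted p of all members, at 2.59 (SE 0.80, limma adjusted p = 0.0777), with group means of 13.83 ± 1.91 against 11.24 ± 1.04 (SD, n = 5). Rpl22l1, probe set 1417126_a_at, read 16.42, 16.28, 16.66, 16.21 and 15.92 in the 5 High Exploration arrays and 16.43, 14.95, 15.07, 15.60 and 14.42 in the 5 Low Exploration arrays. In Rpl22l1 the spread among High Exploration arrays was small and the difference was 1.00 (SE 0.39, limma adjusted p = 0.117).

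Rpl41 encodes the shortest ribosomal protein. The log2 signals of Rpl41 (probe set 1422623_x_at) were 12.92, 13.65, 16.02, 12.42 and 12.42 in High Exploration replicates 1 to 5 and 13.68, 11.40, 11.81, 12.002 and 11.83 in Low Exploration replicates 1 to 5. The difference was 1.34 (SE 0.67, limma adjusted p = 0.189), and its 3 other probe sets stood at 1.43, −0.52 and −0.89. Across replicates 1 to 5, probe set 1415979_x_at for Rpl7 gave 12.54, 13.48, 14.73, 11.37 and 11.90 in High Exploration and 12.51, 11.71, 11.44, 11.07 and 11.02 in Low Exploration. Rpl7, a structural protein of the large subunit, differed by 1.26 (SE 0.58, limma adjusted p = 0.163), and its near relative Rpl7l1, a paralogue that acts in ribosome assembly, by 0.23 (SE 0.44, limma adjusted p = 0.737), with its other probe set at −0.28.

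The log2 signals of Rpl37a (probe set 1460543_x_at) were 12.67, 13.14, 14.77, 12.03 and 12.53 in High Exploration replicates 1 to 5 and 13.26, 11.77, 11.45, 11.15 and 11.49 in Low Exploration replicates 1 to 5. For Rpl37a, a zinc-finger protein of the large subunit, High 3 was highest and the difference was 1.21 (SE 0.54, limma adjusted p = 0.154). Rpl11, probe set 1417615_a_at, read 13.17, 13.76, 15.01, 12.12 and 12.60 in the 5 High Exploration arrays and 14.17, 12.23, 12.18, 11.47 and 11.56 in the 5 Low Exploration arrays. Rpl11, which with Rpl5 and 5S RNA binds Mdm2 when ribosome assembly is disturbed, differed by 1.01 (SE 0.61, limma adjusted p = 0.269), and Low 1 lay above 4 of the High Exploration arrays.

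**Figure D4:**
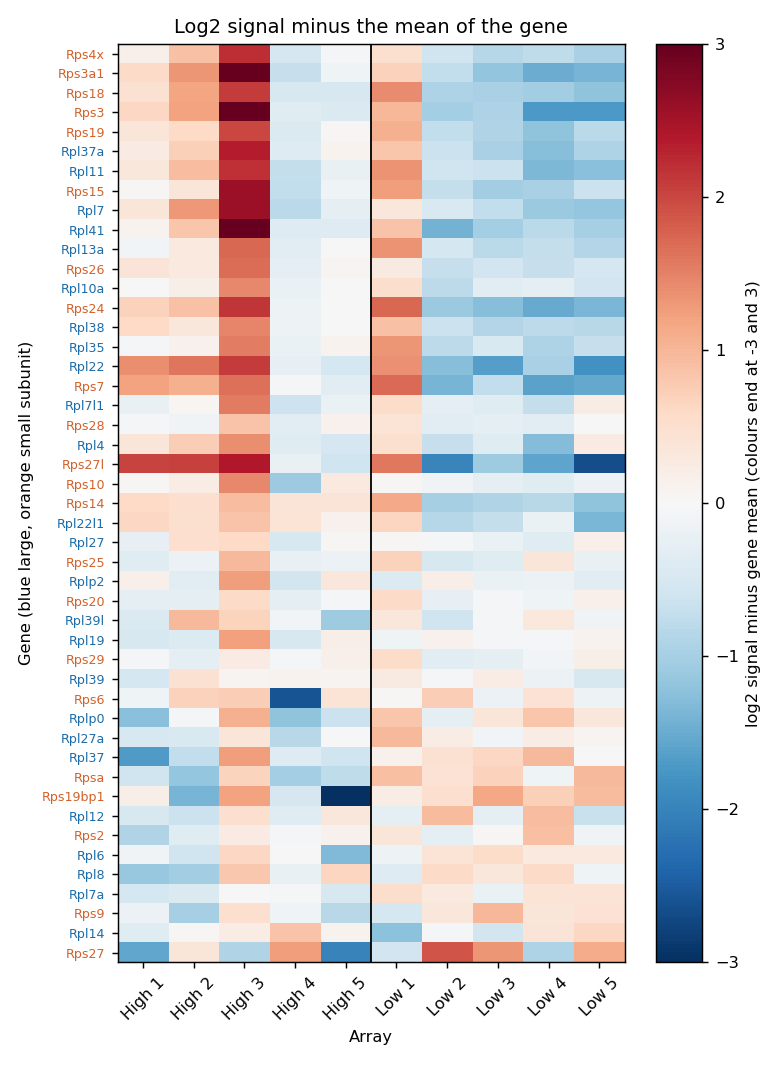
Log2 signal minus the gene's mean over 10 arrays for 47 ribosomal protein genes (rows) in the 5 High and 5 Low Exploration arrays (columns), with genes ordered by their correlation with the median of the other genes. High 3 is the highest array for most rows and Low 1 the highest of the Low Exploration columns, while the genes at the other end of the order do not follow this pattern.

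Lower means in High Exploration were less frequent. Rpsa, a small subunit protein also known as a laminin receptor, had the lowest adjusted p among representative probe sets with a lower mean. Rpsa, probe set 1448245_at, read 13.91, 13.34, 15.18, 13.50 and 13.76 in the 5 High Exploration arrays and 15.41, 14.95, 15.21, 14.37 and 15.49 in the 5 Low Exploration arrays. Its difference was −1.15 (SE 0.40, limma adjusted p = 0.0952), it was −1.66 after quantile normalisation, −0.61 after median centring and −0.54 with the hybridisation controls set equal, and of the High Exploration arrays only High 3 reached the Low Exploration range. Rps19bp1, the Rps19-binding protein that also activates the deacetylase Sirt1, stood at −1.42 (SE 0.64, limma adjusted p = 0.156). Rps9, a small subunit protein, stood at −0.65 (SE 0.39, limma adjusted p = 0.269). Rps2, at the mRNA entry, stood at −0.37 (SE 0.36, limma adjusted p = 0.492), turning to 0.17 after median centring and 0.24 with equal hybridisation controls. Without Rps19bp1 the small subunit median was 0.84.

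In the large subunit, Rpl37 stood at −0.87 (SE 0.48, limma adjusted p = 0.231). Rplp0, the base of the stalk that recruits elongation factors, stood at −0.83 (SE 0.46, limma adjusted p = 0.231), on a probe set with a mean of only 8.13. Rplp2, a stalk protein bound by Rplp0, stood at 0.36 (SE 0.38, limma adjusted p = 0.528), and Rplp1 had no probe set with 1 symbol. Across replicates 1 to 5, probe set 1422613_a_at for Rpl7a gave 11.66, 11.77, 12.22, 12.17 and 11.72 in High Exploration and 12.74, 12.50, 12.01, 12.60 and 12.61 in Low Exploration. Rpl7a differed by −0.58 (SE 0.31, limma adjusted p = 0.209), Rpl27a by −0.57 (SE 0.35, limma adjusted p = 0.277) and Rpl6 by −0.56 (SE 0.38, limma adjusted p = 0.328), and all 3 turned to just above 0 (0.023, 0.040 and 0.049) with equal hybridisation controls.

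Other genes fixed for description had differences smaller than their SE. Rps6, the S6 kinase target, stood at −0.34 (SE 0.57, limma adjusted p = 0.697), and at 0.19 after median centring and 0.26 with equal hybridisation controls, with High 4 at 7.22. Rpl39, which lines the exit tunnel, stood at 0.09 (SE 0.32, limma adjusted p = 0.865), turning to −0.10 after quantile normalisation, and its testis-enriched paralogue Rpl39l at 0.03 (SE 0.42, limma adjusted p = 0.97). Rpl3l, the muscle paralogue of Rpl3, was below the filter, and Rps27a, Rpl3, Rpl10, Rpl10l, Rpl36a and Rpl36al had no probe set with 1 symbol. Fau, which carries a small subunit protein fused to a ubiquitin-like one and lies outside the symbol rule, stood at 0.17 (SE 0.39, limma adjusted p = 0.79).

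The genes moved together across arrays to differing degrees. Pairwise Pearson correlations over 10 arrays, which share the same libraries and scaling, had medians of 0.36 among large subunit genes, 0.46 among small and 0.40 between them, and with the group means removed these were 0.44, 0.61 and 0.50. They are not set against correlations among other probe sets, so they do not show a trait particular to these genes. Against the median of the other genes, 17 genes had r above 0.9, 9 large and 8 small, led by Rps4x (0.990). Some of them, such as Rps18, Rpl37a and Rpl7, rest on _x_at probe sets, whose probes can also bind other sequences. Others, such as Rps4x, Rps3a1 and Rps3, rest on _a_at probe sets. Over the 8 arrays other than High 3 and Low 1, 12 of the 17 were still above 0.9, among them Rps4x (0.989), Rpl7 (0.986), Rps18 (0.984) and Rpl22 (0.920), and 5 were not: Rpl38 (0.860), Rpl41 (0.852), Rps26 (0.850), Rpl35 (0.802) and Rpl10a (0.779). At the other end 15 genes had r under 0.4, 7 of them below 0, among them Rps27 (−0.41), Rpl14 (−0.28), Rps9 (−0.27) and Rpl7a (−0.19). Rps20, Rpl19 and Rpsa went from 0.58, 0.48 and 0.0092 over 10 arrays to −0.58, −0.63 and −0.74 over those 8.

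Probe sets of 1 gene did not always share a direction. Of 19 genes with several tested probe sets, 12 had all of them higher in High Exploration and 7 were split. Rpl35, a protein near the exit tunnel, had 5 probe sets at 0.62 to 2.07 and 1 less abundant one, 1454833_at, at −1.27 (SE 0.52, limma adjusted p = 0.126). Rps29, a small zinc-binding protein of the small subunit, stood at 0.0036 on its most abundant probe set and at 1.63 (SE 0.55, limma adjusted p = 0.0889) on 1437413_x_at. Rpl13a, which besides the large subunit is known from an interferon-induced translational silencing complex, gave 0.82 on the probe set whose groups did not overlap and 0.19 to 1.57 on its other 3.

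**Figure D5:**
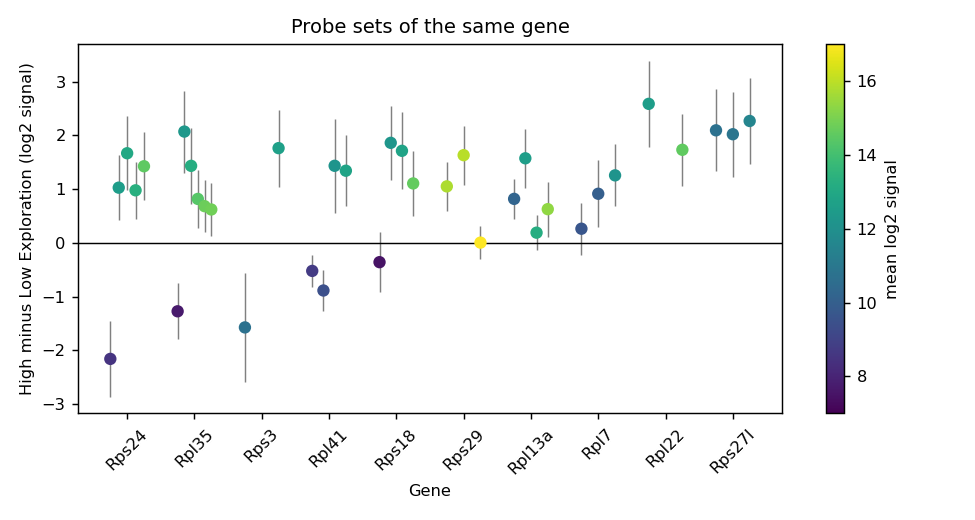
High minus Low Exploration difference in log2 signal with its limma SE for each tested probe set of 10 ribosomal protein genes (n = 5 arrays per group). Within Rps24, Rpl35, Rps3 and Rpl41 probe sets lie on both sides of 0, while the 3 of Rps27l and both of Rpl22 lie above it.

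Lists of related genes were described for comparison. Of the ribosome biogenesis genes, 16 of 32 tested had a higher mean and 16 a lower, with a median of −0.02, none passing an adjusted p of 0.05 in limma and 3 higher (9.38%, beside 9.67% of all tested) and 1 lower (3.12%, beside 20.5%) at an unadjusted p under 0.05. The widest differences were 1.52 (SE 0.42, limma adjusted p = 0.0665) for Gnl3, a nucleolar GTPase, and −1.58 (SE 0.67, limma adjusted p = 0.137) for Fbl, the rRNA methyltransferase fibrillarin. Of 15 other mRNAs with a TOP tract, 11 were higher (73.3%, beside 38.1% of all tested) and 4 lower, with a median of 0.24. In the most abundant 10% of probe sets 65.6% were higher, with a median of 0.43. None of the 15 passed by adjusted p in limma, and 2 were higher (13.3%) and 0 lower at unadjusted p. The 2 were Eif3f at 1.11 (SE 0.47, limma adjusted p = 0.136) and Tpt1 at 0.81 (SE 0.34, limma adjusted p = 0.13). Naca, not among them, stood at 1.04 (SE 0.53, limma adjusted p = 0.201). The list of mTOR and TOP translation regulators also held Pdk1, a symbol that names a pyruvate dehydrogenase kinase and not the mTOR pathway kinase Pdpk1, which was listed too. Without Pdk1, left out after seeing the data, 2 of 12 were higher (16.7%) and 10 lower, with a median of −0.20, none by adjusted p and 1 higher (8.33%) and 1 lower (8.33%) at unadjusted p in limma. With it, 3 of 13 were higher, with a median of −0.14 and 2 higher and 1 lower at unadjusted p. Rheb, the GTPase that activates mTOR, stood at 1.68 (SE 0.68, limma adjusted p = 0.124) and Akt1, the upstream kinase, at −1.47 (SE 0.43, limma adjusted p = 0.0711). Each median is beside −0.31 over all tested probe sets.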

How the data were processed

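Whole hippocampus of 10 mice was profiled on Affymetrix mouse arrays, 1 array per mouse, from RNA purified on Qiagen RNA/DNA columns. The labels describe the standard Affymetrix protocol and the study's methods a double round of amplification, which is not settled here; the design text describes another experiment on handled mice. The authors deposited MAS5 signal intensities on a linear scale, summarised in Expression Console with each array scaled by a constant and no normalisation of the distribution, so differences in spread between arrays stay in the values. Since replicates are separate mice, p-values measure the spread between mice and arrays together.

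Signals were taken to log2, 64 control probe sets were left out, and the 22518 probe sets whose mean log2 signal exceeded the median mean (7.43) were fitted with limma 3.58.1 in R 4.3.3 (lmFit and eBayes, Benjamini-Hochberg over all tested, threshold 0.05), first tested on simulated data. Controls were compared by exact 2-sided permutation. Genes named were, per subunit, the 5 most positive and 5 most negative representatives, any called member, a fixed set of stalk proteins and paralogues, and the 2 genes whose probe sets ranged widest; Rps29, Rpl13a and the genes given for their correlation were chosen after their values were seen. The members and lists were chosen with earlier results of these data known. Alternatives were quantile normalisation, median centring, equal hybridisation controls, no filter, a pseudocount of 23.0, array weights, leaving out each array and other rules for a gene's probe set. Leaving out High 3 and Low 1 together, leaving out Rps19bp1 or Pdk1 and using probe sets with several symbols were added after seeing the data. Sequences are from RefSeq promoter windows of GRCm38.p6, matched by symbol. The number of arrays limits the precision.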

Additional observations from a re-analysis of the deposited data

Results flagged for a closer look

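A check for a sample far from the others of its group was run on 60 groups of 5 arrays (30 measures in 2 groups), and 10 were flagged, where chance flags about 1 in 20. In 8 of the 10 the array was Low Exploration replicate 1. For Rpl22 (1453118_s_at) it read 15.95, where the other 4 Low Exploration arrays read 12.76 to 13.60. For Rpl41 (1422623_x_at) it read 13.68, against 11.40 to 12.002. It stood at 14.17 for Rpl11, against 11.47 to 12.23, and at 16.86 for Rps7, against 13.54 to 14.42. Rps24 (1436064_x_at) was at 16.24 there, against 13.01 to 13.41, and Rpl35 (1436840_x_at) at 16.15, against 13.90 to 14.38. The median over small subunit genes was 13.72 in this array, against 11.69 to 12.05, and over all ribosomal protein genes 13.26, against 11.79 to 12.14. High Exploration replicate 3 was the highest of its group for Rpl35 (1436840_x_at), at 16.38 against 14.64 to 14.97. High Exploration replicate 4 was the lowest for Rps6 (1416142_at), at 7.22 against 9.67 to 10.54. The measures share arrays and move together, so the flags are not independent.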

How the results depend on the processing

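No paired analysis was possible because the labels give the mice no shared replicate numbers. Members passing an adjusted p of 0.05 in limma numbered 0 as reported, 1 after median centring (Rps29) and 6 of 87 with array weights. With each array left out they numbered 0 to 1 (Rpl22 without High 5, Rps29 without Low 1). Of all 22518 tested probe sets, 1042 passed without High 5 and 17 without Low 1. Members higher at unadjusted p numbered 22 as reported, 14 (16.1%, beside 12% of all tested) after quantile normalisation, 53 (60.9%, beside 23%) after median centring, 50 (57.5%, beside 23.2%) with equal hybridisation controls and 6 to 39 with each array left out. Members lower numbered 5, 1 (1.15%, beside 5.74%) after median centring, 0 (beside 3.94%) with equal hybridisation controls, 2 to 8 with each array left out and 10 without High 3 and Low 1. Quantile normalisation left 5 lower, beside 10.7%. The small subunit median, with Rps19bp1 counted in both values, turned from 0.60 to −1.14 with only probe sets ending in _at alone. The cause was not tested. Under the other alternatives both subunit medians stayed above 0 and 28 to 41 of 47 genes were higher, but 9 of 21 genes with probe sets ending in _at alone. Of all 22518 tested probe sets, 2186 passed an adjusted p of 0.05 in limma with array weights, and 906 after median centring. With 5 arrays per group single arrays move the unadjusted counts, the higher count most without High 3, Low 5 or Low 1 and the lower count most, as a ratio, without Low 4 or Low 5, and signals near background were not tested.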

Other observations

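Ribosomal protein probe sets with several symbols, 110 in number, were outside the comparison. Of these 95 passed the filter, 58 had a higher and 37 a lower mean in High Exploration, and their median difference was 0.39 at a median log2 signal of 13.3. The 58 are 61.1%, beside 38.1% of all tested probe sets and 65.6% of the most abundant 10%, whose median difference was 0.43. None passed an adjusted p of 0.05 in limma. At an unadjusted p under 0.05, 17 were higher (17.9%, beside 9.67%) and 4 lower (4.21%, beside 20.5%). Of the 19 member probe sets below the filter, 7 had a higher and 12 a lower mean. One of them, 1416719_a_at for Rps10, read 8.09 ± 0.81 in High Exploration and 5.59 ± 0.84 in the other group (SD, n = 5) without overlap. It was chosen after its values were seen and had no test.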
